A study of Ovis aries with 6 samples.

Results

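The genes described are the glucose-sensing transcription factor ChREBP (MLXIPL) with its paralogue and partner (MLXIP and MLX), a pair of arrestin-like target genes (TXNIP and ARRDC4), the sterol-response factor SREBF1, and 4 enzymes of fatty acid synthesis (ACACA, ACACB, FASN and ELOVL6). They were chosen by symbol, with earlier results of these data known. Each of these 10 symbols matched 1 of the 33609 genes in the count table, and all 10 were among the 18019 with enough counts to be tested. RNA came from the choroid plexus of 3 groups of ewes: ewes whose thyroid had been surgically removed and that were kept in long days (THX, 7 ewes), ewes in long days with the thyroid in place (Long, 8 ewes) and ewes in short days with the thyroid in place (Short, 8 ewes). The RNA of 3 to 4 ewes was mixed in equal amounts into each pool, and 2 pools per group were sequenced. The p-values therefore measure the spread between pools and not between single ewes. The sources used here do not give breed, age, the hours of light or the time since surgery.

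The choroid plexus is a folded epithelium in the brain ventricles that secretes cerebrospinal fluid. ChREBP is a transcription factor that becomes active when glucose metabolites accumulate in the cell. It pairs with MLX, binds carbohydrate response elements, and turns on genes that convert sugar into fat. In the same pathway, acetyl-CoA carboxylase makes malonyl-CoA, fatty acid synthase builds palmitate from it, and ELOVL6 lengthens palmitate to stearate. The system is best known in liver and adipose tissue, and in mouse liver Mlxipl is one of the genes that thyroid hormone induces.

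The pools held from 48282883 to 82100653 counts, and the 10 genes had between 712 and 25667 counts in each pool. All levels are CPM, counts scaled to a common library total with TMM factors, given as single pools or as mean ± SD (n = 2 pools), and they were not divided by transcript length, so they are compared between pools and never between genes. The 2 pools of a group differed by 15.8 to 70.4 times the variance expected of counting alone, and the THX pools differed most from each other. HR and KLF9, which respond to the thyroid hormone receptor, fell in THX relative to Long pools by log2 differences of −2.94 and −1.38 (adjusted p = 0.000835 and 0.0053 by the edgeR quasi-likelihood test). The epithelial markers were present in every pool, with transthyretin (TTR) between 86397 and 140707 CPM.

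MLXIPL (identifier 101115503) fell in THX pools. It stood at 42.7 and 47.9 CPM in the THX pools, against 119 and 120 CPM in the Long pools and 128 and 110 CPM in the Short pools. Both THX pools lay far below all 4 pools of ewes with a thyroid, among which the highest value was 1.16 times the lowest. The mean was 45.3 ± 3.63 CPM in THX, 120 ± 0.813 CPM in Long pools and 119 ± 12.7 CPM in Short pools. Relative to Long pools the level was 2.64-fold lower (log2 difference −1.40, SE 0.101, 95% interval −1.64 to −1.16, adjusted p = 0.00759). Its unadjusted p had rank 6 among the 18019 genes. The fall was seen with either THX pool left out, at log2 differences of −1.32 without pool 1 and −1.48 without pool 2 (adjusted p = 0.037 and 0.0222). The call was lost without Long pool 1 (log2 difference −1.41, adjusted p = 0.0636) and without Long pool 2 (−1.40, adjusted p = 0.0956).

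**Figure D1:**
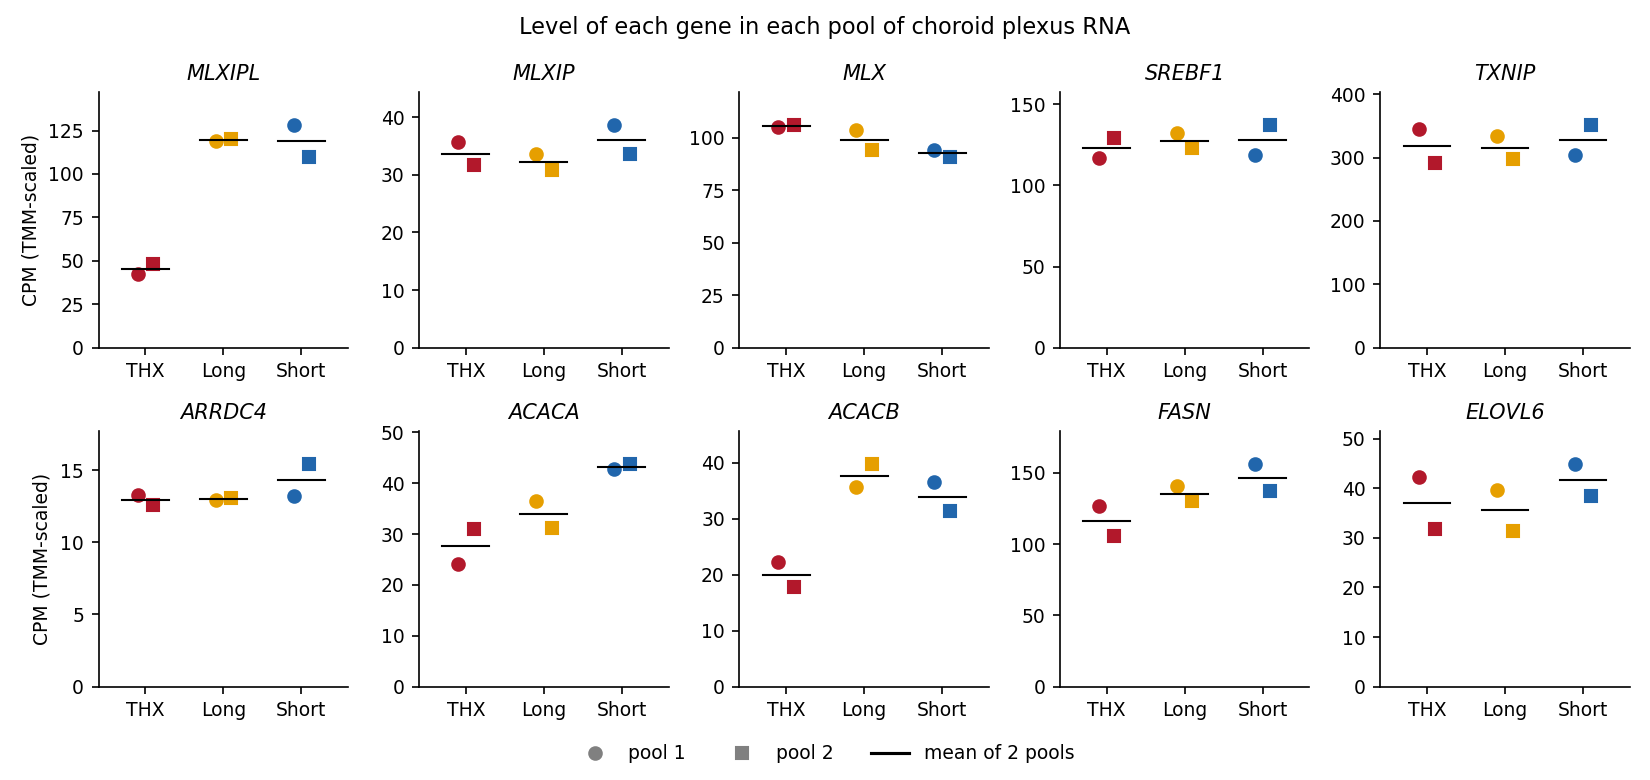
Level of each of the 10 genes in TMM-scaled CPM (vertical axes from 0) in the 2 THX, 2 Long and 2 Short pools; circles are pool 1, squares pool 2 and bars the mean. MLXIPL at 42.7 and 47.9 CPM and ACACB at 22.2 and 17.8 CPM in THX pools lie below all Long and Short pools, whereas MLXIP, TXNIP, ARRDC4, SREBF1 and ELOVL6 overlap them.

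MLXIP and MLX, the paralogue and the partner of ChREBP, did not pass the test. MLXIP (identifier 101102760) encodes MondoA, the paralogue of ChREBP that also pairs with MLX and is best known from muscle. It had 35.7 and 31.7 CPM in the THX pools, 33.6 and 30.8 CPM in the Long pools and 38.6 and 33.6 CPM in the Short pools. The THX pools overlapped both other groups, and both Long pools lay below both Short pools, the nearest pair by less than the rounding of these values. The log2 difference between THX and Long pools was 0.07 (95% interval −0.19 to 0.32, adjusted p = 0.96, edgeR), which leaves room for a change of up to 1.25-fold upward. MLX (identifier 101102914), the shared partner of both factors, had 105 and 106 CPM in the THX pools, 104 and 94.4 CPM in the Long pools and 94.2 and 91.0 CPM in the Short pools. The THX pools lay just above the other 4, by a margin that the test did not call (log2 difference 0.09 against Long, 95% interval −0.10 to 0.27, adjusted p = 0.865; 0.19 against Short, adjusted p = 0.213).

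The RNA level of MLXIPL can be set against MLXIP and MLX as a ratio of counts in 1 pool. Such a ratio does not depend on how the libraries were scaled. MLXIPL over MLXIP was 1.20 and 1.51 in the THX pools, against 3.55 and 3.91 in the Long pools, with 3.31 and 3.27 in the Short pools. MLXIPL over MLX was 0.406 and 0.452 in the THX pools, against 1.14 and 1.27 in the Long pools, with 1.36 and 1.21 in the Short pools. Neither ratio overlapped between THX and the other pools. With 2 pools against 2 an exact two-sided permutation test cannot give a p below 0.333, so the ratios are a description. The size of each ratio also depends on transcript length and has meaning only in comparison between pools.

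**Figure D2:**
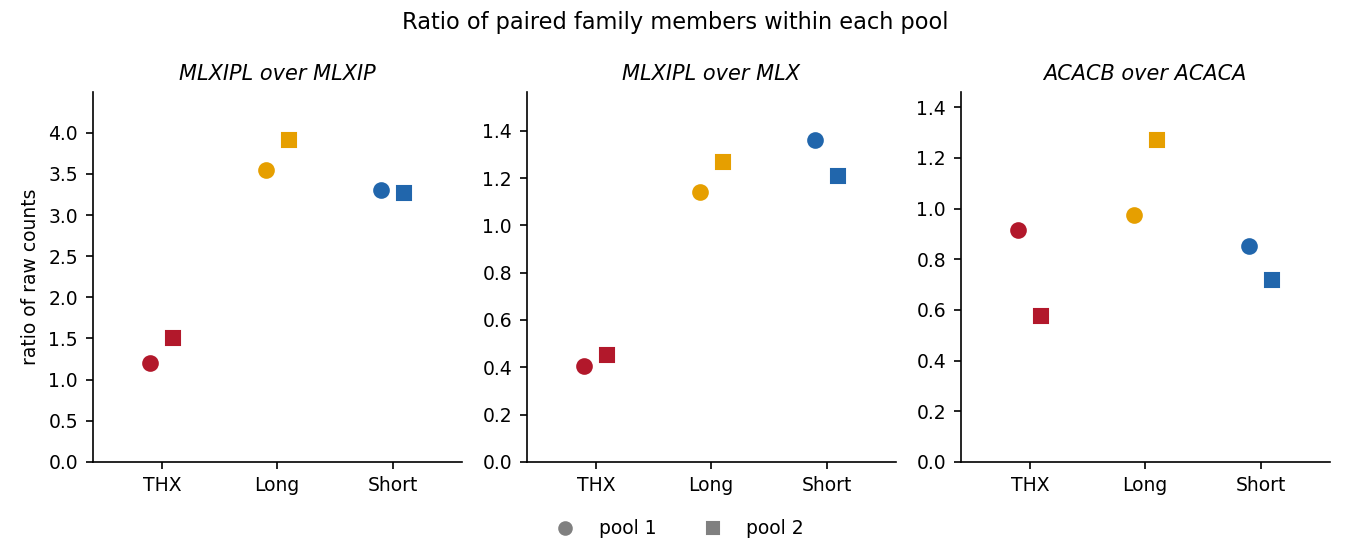
Ratio of the raw counts of 2 related genes within each pool (vertical axes from 0, no unit) for the THX, Long and Short pools; circles are pool 1 and squares pool 2. MLXIPL over MLXIP lies at 1.20 and 1.51 in THX pools and at 3.27 or more in the others. ACACB over ACACA in THX pools, at 0.915 and 0.575, lies below the Long pools but spans the Short pools.

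TXNIP and ARRDC4 encode alpha-arrestins that restrain glucose uptake, and both are known as direct targets of ChREBP and MondoA. Neither passed the test in any comparison. TXNIP (identifier 654403) had 345 and 291 CPM in the THX pools, 334 and 298 CPM in the Long pools and 304 and 351 CPM in the Short pools. ARRDC4 (identifier 101112169) had 13.3 and 12.6 CPM in the THX pools, 12.9 and 13.1 CPM in the Long pools and 13.2 and 15.4 CPM in the Short pools. For TXNIP all 3 groups overlapped. For ARRDC4 the THX pools overlapped both other groups, and both Long pools lay below both Short pools by a margin that the test did not call. The ratio of the THX to the Long level was 1.01 for TXNIP (95% interval 0.829 to 1.22, adjusted p = 0.997) and 0.997 for ARRDC4 (0.815 to 1.22, adjusted p = 0.999). A change of more than 1.23-fold either way lies outside both intervals, which the 2.64-fold fall of MLXIPL exceeds. The sign of the TXNIP difference turned with the scaling: it was 0.01 on the log2 scale with TMM factors and −0.04 with total counts.

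SREBF1 (identifier 100329218) encodes SREBP-1, the insulin-responsive factor that works beside ChREBP on lipogenic promoters. It had 117 and 129 CPM in the THX pools, 132 and 123 CPM in the Long pools and 119 and 137 CPM in the Short pools. The groups overlapped, and the log2 difference between THX and Long pools was −0.05 (95% interval −0.28 to 0.18, adjusted p = 0.97). Of the 8 genes that process or control SREBPs, all were tested and none was called in this comparison by edgeR. INSIG1, which holds SREBPs in the endoplasmic reticulum and is itself an SREBP target, averaged 17.6 ± 2.12 CPM in THX and 22.0 ± 2.48 CPM in Long pools (log2 difference −0.32, adjusted p = 0.514). INSIG2, its paralogue, averaged 35.4 ± 0.623 CPM in THX and 31.2 ± 0.0287 CPM in Long pools (log2 difference 0.18, adjusted p = 0.548).

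The 2 acetyl-CoA carboxylases supply malonyl-CoA to different places. ACACB (identifier 101114816) encodes the form at the mitochondrial surface, whose malonyl-CoA restrains entry of fatty acids into mitochondria. It had 22.2 and 17.8 CPM in the THX pools, against 35.6 and 39.7 CPM in the Long pools and 36.5 and 31.4 CPM in the Short pools. Both THX pools lay below the other 4. The log2 difference from Long pools was −0.92 (SE 0.136, 95% interval −1.24 to −0.59), with an adjusted p of 0.0717 that missed the threshold of 0.05. ACACB was called in 2 of 14 alternative settings. They were edgeR without the filter on low counts (adjusted p = 0.00458) and DESeq2 (adjusted p = 1.18e-06). These called 204 and 448 of all genes, against 51 in the main fit. Over all 14 settings the log2 difference of ACACB ran from −1.08 to −0.76.

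ACACA (identifier 443186) encodes the cytosolic carboxylase that feeds fatty acid synthesis. It had 24.2 and 31.0 CPM in the THX pools, 36.5 and 31.2 CPM in the Long pools and 42.8 and 43.7 CPM in the Short pools. THX pool 2 and Long pool 2 were nearly equal, and the Short pools were the highest. The log2 difference between THX and Long pools was −0.30 (95% interval −0.61 to 0.02, adjusted p = 0.591). The ratio of ACACB to ACACA was 0.915 and 0.575 in the THX pools, 0.975 and 1.27 in the Long pools, with 0.853 and 0.720 in the Short pools. Both THX ratios lay below both Long ratios, the nearest pair at 0.915 and 0.975. The spread between the THX pools covered both Short pools. Against Short pools no difference between the carboxylases was therefore separable from the spread between pools.

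FASN (identifier 100170327), the fatty acid synthase, had 127 and 106 CPM in the THX pools, 141 and 130 CPM in the Long pools and 156 and 137 CPM in the Short pools. Both THX pools lay below the rest, by a small margin for pool 1. The log2 difference from Long pools was −0.21 (95% interval −0.48 to 0.05, adjusted p = 0.661). ELOVL6 (identifier 101118274), the elongase that makes stearate, had 42.2 and 31.8 CPM in the THX pools, 39.7 and 31.3 CPM in the Long pools and 44.8 and 38.4 CPM in the Short pools. In each group pool 1 was higher than pool 2 and the groups overlapped (THX against Long, log2 difference 0.06, 95% interval −0.34 to 0.46, adjusted p = 0.98).

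Seen together, the comparison of THX with Long pools, which asks what loss of the thyroid does at a constant day length, called 1 of the 10 genes, and the same test called 0.283% of all tested genes (51 of 18019). That gene was MLXIPL. In log2 difference 4 of the 10 lay above 0 and 6 below, with a median of −0.03, beside a median of 0 over all tested genes. The THX and Long pools did not overlap for 5 of the 10, MLX upward and MLXIPL, ACACA, ACACB and FASN downward, where 37.2% of all genes showed such separation. Set against the Long and Short pools together, the THX pools lay outside the range of the other 4 for the same 5 genes, where 22.2% of all genes did so, and below it for 4 of the 10, where 11.3% did so. Among the 12083 genes with a mean of at least 5 CPM, the log2 difference of MLXIPL was number 23 from the lowest and that of ACACB number 69. The 10 genes were chosen with earlier results of these data known, so the shares beside them are a description and not a test.

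**Figure D3:**
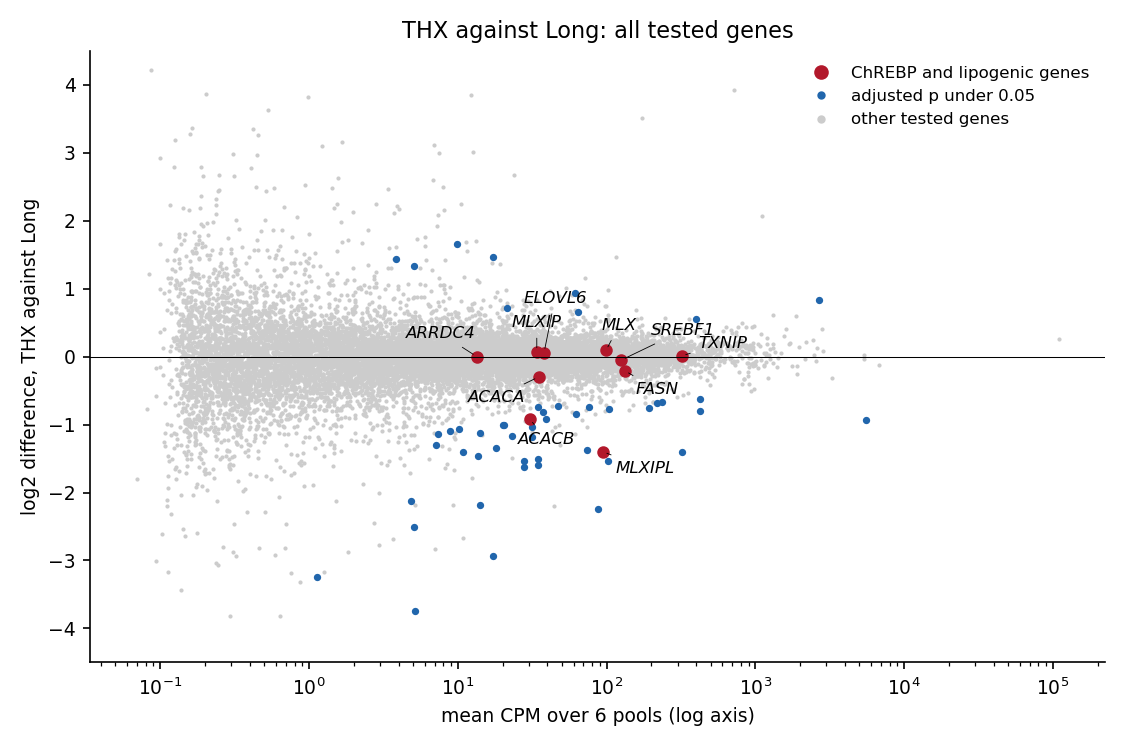
Log2 difference between THX and Long pools (vertical axis) against the mean CPM over 6 pools (log horizontal axis) for the tested genes within 4.5 of 0, which leaves 13 of the 18019 off the plot; red points are the 10 genes, blue points other genes with an adjusted p under 0.05. MLXIPL, at −1.40, and ACACB, at −0.92, lie below the bulk of genes of like CPM, and the other 8 lie between −0.30 and 0.09.

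The comparison of Long with Short pools asks what day length does in ewes with a thyroid, and shares the Long pools with the comparison above. The MLXIPL mean was 120 ± 0.813 CPM in Long pools and 119 ± 12.7 CPM in Short pools (log2 difference 0.01, 95% interval −0.22 to 0.24, adjusted p = 0.972, edgeR). The interval leaves out changes of more than 1.18-fold in either direction, and the sign turned with total-count scaling (−0.04). ACACA averaged 33.9 ± 3.73 CPM in Long pools and 43.2 ± 0.598 CPM in Short pools. Both Long pools lay below both Short pools, but the difference did not pass (log2 difference −0.35, 95% interval −0.67 to −0.03, unadjusted p = 0.0342, adjusted p = 0.349). For ACACB the Long mean of 37.7 ± 2.93 CPM and the Short mean of 34.0 ± 3.60 CPM gave a log2 difference of 0.15 (adjusted p = 0.621). For FASN the means were 135 ± 7.57 CPM in Long pools and 147 ± 13.4 CPM in Short pools, and the log2 difference was −0.12 (adjusted p = 0.633). For ELOVL6 they were 35.5 ± 5.91 CPM in Long pools and 41.6 ± 4.54 CPM in Short pools, and the log2 difference was −0.23 (adjusted p = 0.543). None of the 10 genes was called by edgeR, DESeq2 or limma-voom, 1 had an unadjusted p below 0.05 in edgeR, and the share called over all genes was 0%. Over all genes 2486 of 18019 had an unadjusted p below 0.05, and DESeq2 called 159 and limma-voom 0. The Long and Short pools did not overlap for 4 of the 10, where 53.5% of all genes did not.

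THX against Short pools differ in both the thyroid and the day length. MLXIPL fell here as well (log2 difference −1.39, SE 0.101, 95% interval −1.63 to −1.15, adjusted p = 0.00595), and it was called under all 14 alternative settings, with adjusted p up to 0.0348. It was the only 1 of the 10 called by edgeR, where 0.916% of all genes were called. ACACB (log2 difference −0.77, 95% interval −1.09 to −0.45, adjusted p = 0.0573) and ACACA (−0.65, 95% interval −0.96 to −0.33, adjusted p = 0.0765) missed the threshold narrowly. Both were called by DESeq2 (adjusted p = 6.1e-05 and 0.000906), without the filter on low counts (0.00731 and 0.0164) and with total-count scaling (0.0487 and 0.0471). Each of these settings also called more of all tested genes than the main fit did. Of 14 alternative settings, ACACB was called in 6 and ACACA in 3. Over all 14 the ACACB difference ran from −0.93, without THX pool 1, to −0.61. The ACACA difference ran from −0.83 to −0.48. FASN had a log2 difference of −0.33 (95% interval −0.60 to −0.07, adjusted p = 0.157). Of the 10 differences 9 lay below 0, with a median of −0.16 beside −0.01 over all tested genes, and MLX alone lay above 0. The groups did not overlap for 5 of the 10, where 52.5% of all genes did not.

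**Figure D4:**
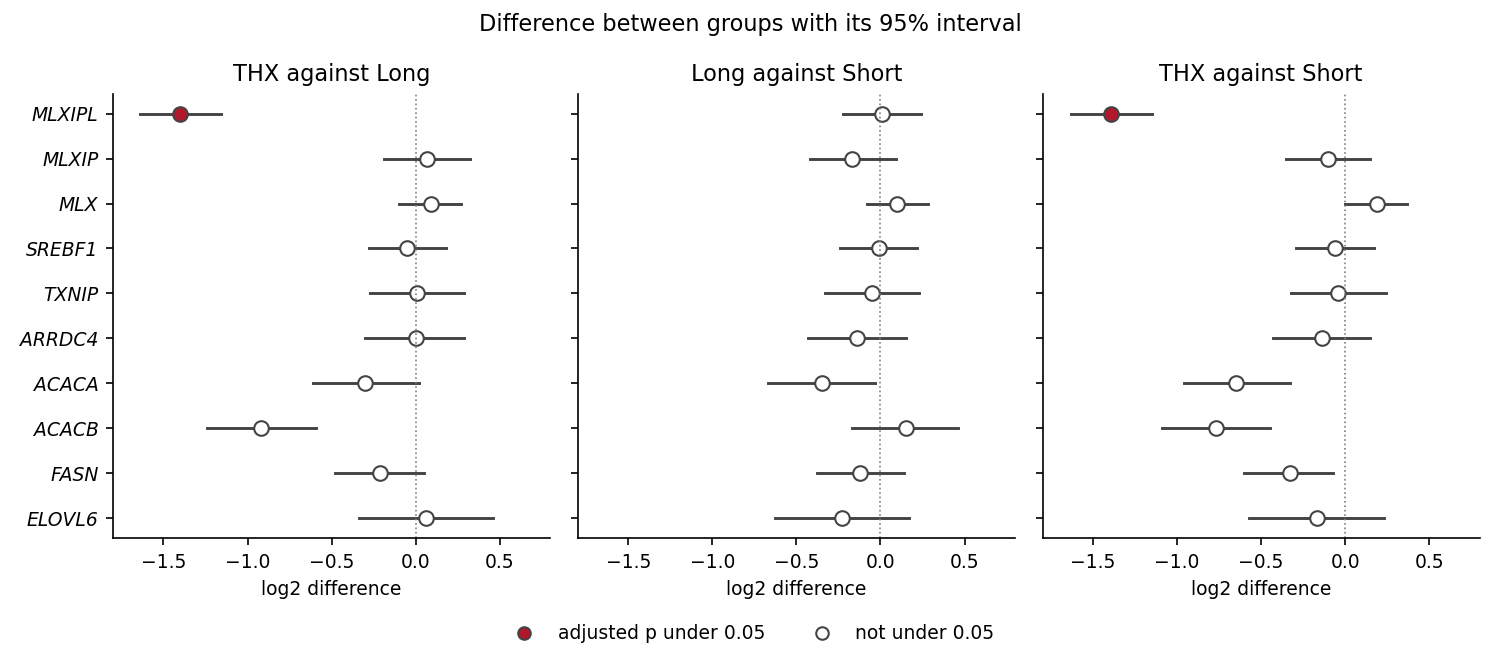
Log2 difference (points) with its 95% interval (lines) for the 10 genes in each of the 3 comparisons, the first-named group over the second; filled points have an adjusted p under 0.05. MLXIPL is filled in both THX comparisons, at −1.40 and −1.39, and lies at 0.01 in Long against Short, and the ACACB intervals in the THX comparisons, −1.24 to −0.59 and −1.09 to −0.45, do not reach 0.

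Around these genes, 93 others of the same pathways were read from 9 lists, of which 89 were tested. None was called in any of the 3 comparisons by edgeR. Over all tested genes it called 0.283% in THX against Long, 0% in Long against Short and 0.916% in THX against Short pools. In the same order, 9, 12 and 22 of the list genes had an unadjusted p below 0.05. Over all tested genes 9.08%, 13.8% and 22.6% were below that level. DESeq2 called 1, 0 and 7 of the list genes, against 448, 159 and 1761 of all tested genes. By limma-voom none of the list genes was called. Their median log2 difference in THX against Long pools was 0, as over all tested genes. With total counts in place of TMM factors, the list medians given below were lower by about 0.05, so those of the acetyl-CoA and NADPH list and the carboxylase list turned to −0.03, and 6 of 11 glucose entry genes lay above 0.

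Known carbohydrate-response targets other than the arrestins did not pass. Of 12 such genes 10 were tested, 4 above and 6 below 0 in THX against Long pools, with a median of −0.15. KLF10, a repressor induced by glucose, averaged 8.61 ± 0.626 CPM in THX, 11.1 ± 0.411 CPM in Long pools and 11.4 ± 1.91 CPM in Short pools, and the log2 difference from Long pools was −0.36 (adjusted p = 0.556). PKLR, the liver-type pyruvate kinase and the classical ChREBP target, was named after its values were seen. Like KLF10, it is one of the 6 below 0. Its counts were low, from 39 to 107 per pool. It had 0.686 and 1.05 CPM in the THX pools, against 1.23 and 1.38 CPM in the Long pools and 1.27 and 1.51 CPM in the Short pools (log2 difference −0.58 against Long, adjusted p = 0.668). Without THX pool 1 that difference was −0.31 and without THX pool 2 it was −0.92.

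The MYC, MAX and MXD network holds other partners and rivals of MLX. All 10 of its genes were tested, 5 on each side of 0 in THX against Long pools (median −0.04). MXD4, a repressor that can pair with MLX, averaged 74.7 ± 3.43 CPM in THX, 65.6 ± 3.02 CPM in Long pools and 61.5 ± 1.57 CPM in Short pools, and the log2 difference from Long pools was 0.19 (adjusted p = 0.545). MXD3, another MXD repressor, averaged 3.85 ± 0.312 CPM in THX and 2.89 ± 0.332 CPM in Long pools (log2 difference 0.41, adjusted p = 0.618). Of the other arrestin-domain and thioredoxin genes, 6 of 8 lay below 0 (median −0.09). TXNRD1, which reduces thioredoxin, the protein that TXNIP binds, averaged 81.1 ± 11.9 CPM in THX, 115 ± 15.5 CPM in Long pools and 123 ± 3.07 CPM in Short pools. Its log2 difference from Long pools was −0.51 (adjusted p = 0.259 by edgeR, 0.0182 by DESeq2). ARRDC3, an alpha-arrestin related to TXNIP, averaged 18.3 ± 1.36 CPM in THX and 23.0 ± 1.50 CPM in Long pools (log2 difference −0.33, adjusted p = 0.394).

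Genes of glucose entry lay mostly above 0, 8 of the 11 tested, with a median of 0.10. SLC2A1, the main glucose transporter of brain barriers, averaged 147 ± 5.61 CPM in THX and 134 ± 9.11 CPM in Long pools (log2 difference 0.13, adjusted p = 0.771). The hexokinase HK2 averaged 1.42 ± 0.305 CPM in THX and 1.03 ± 0.182 CPM in Long pools (log2 difference 0.46, adjusted p = 0.765). The 7 genes that supply acetyl-CoA and NADPH had a median of 0.02. Among them the acetyl-CoA synthetase ACSS2 averaged 56.4 ± 0.0648 CPM in THX and 64.8 ± 9.46 CPM in Long pools (log2 difference −0.20, adjusted p = 0.675). The malic enzyme ME1 averaged 80.2 ± 9.58 CPM in THX and 74.2 ± 1.41 CPM in Long pools (log2 difference 0.11, adjusted p = 0.879), and turned to −0.02 without THX pool 1.

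The 14 genes that regulate acetyl-CoA carboxylase or use malonyl-CoA had a median of 0.02 in THX against Long pools. THRSP, known as Spot 14 and a thyroid hormone responsive gene of rodent liver, averaged 2.82 ± 0.0690 CPM in THX, 3.50 ± 0.282 CPM in Long pools and 2.57 ± 0.0904 CPM in Short pools. The THX pools lay between the Long and the Short pools (log2 difference −0.31 against Long, adjusted p = 0.733; 0.13 against Short, adjusted p = 0.701). PRKAB1, a subunit of the AMP-activated kinase that inhibits the carboxylases, averaged 57.3 ± 0.263 CPM in THX and 53.1 ± 2.12 CPM in Long pools (log2 difference 0.11, adjusted p = 0.794).

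Elongases and desaturases lay mostly below 0, 12 of the 14 tested, with a median of −0.06. ELOVL5, which lengthens polyunsaturated fatty acids, averaged 66.0 ± 4.22 CPM in THX and 76.5 ± 3.80 CPM in Long pools (log2 difference −0.21, adjusted p = 0.518). FADS2, the desaturase of the same route, averaged 166 ± 3.71 CPM in THX and 187 ± 3.52 CPM in Long pools (log2 difference −0.17, adjusted p = 0.539). SCD, the stearoyl-CoA desaturase that acts after ELOVL6, was named after its values were seen. It had 16.7 and 8.57 CPM in the THX pools, 17.2 and 16.0 CPM in the Long pools and 28.4 and 26.0 CPM in the Short pools. The log2 difference between THX and Long pools was −0.40 (adjusted p = 0.796, edgeR), and these pools overlapped. Between Long and Short pools it was −0.71 (adjusted p = 0.349). Between THX and Short pools it was −1.11 (adjusted p = 0.0988). That last difference was −1.66 without THX pool 1 and −0.70 without THX pool 2. The final steps of triglyceride synthesis did not pass: DGAT2 averaged 2.62 ± 0.102 CPM in THX and 3.29 ± 0.0434 CPM in Long pools (log2 difference −0.32, adjusted p = 0.736). DGAT1 averaged 45.1 ± 2.78 CPM in THX and 41.7 ± 0.907 CPM in Long pools (log2 difference 0.11, adjusted p = 0.803). They belong to a list of 7 glycerolipid genes with a median of 0.09.

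**Figure D5:**
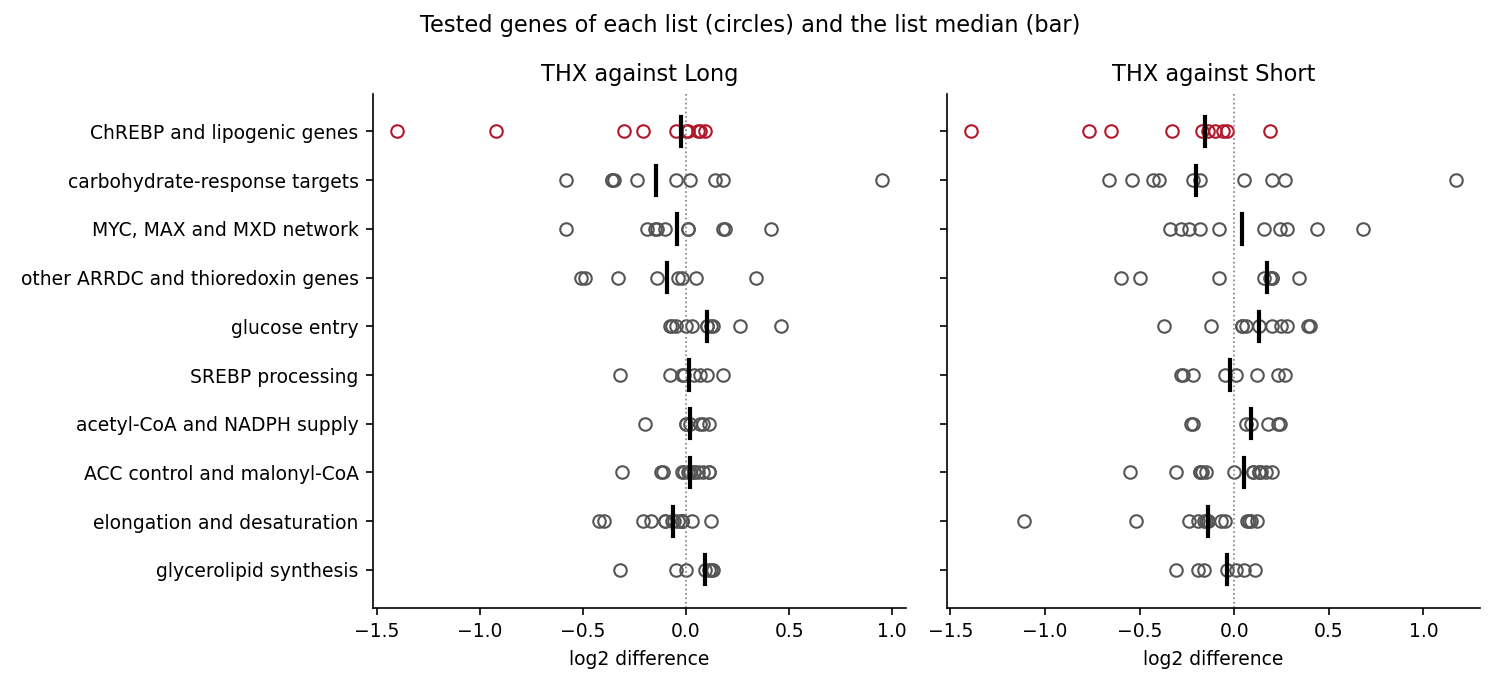
Log2 difference of every tested gene (circles) in the ChREBP and lipogenic group (red) and 9 related lists (grey) for THX against Long and THX against Short pools; black bars are list medians. MLXIPL (−1.40 and −1.39) lies to the left of every gene of the other lists in both panels, and the list medians in the first panel lie between −0.15 and 0.10.

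The genes whose pattern over the 6 pools was most like that of MLXIPL were found by the root mean square difference of log2 CPM after centring each gene on its mean, among 11026 named genes with a mean of at least 5 CPM. The nearest was KLF9, the thyroid hormone receptor target used above as a check of the surgery, at a difference of 0.0773. KLF9 had 36.1 and 34.1 CPM in the THX pools, against 93.2 and 89.9 CPM in the Long pools and 100 and 88.3 CPM in the Short pools. Other scalings shift all genes of a pool alike and so cannot change this measure. A gene picked by it follows the gene it was matched to over these pools by the choice itself. The differences given here for such genes are therefore a description and not a test. With each of the 6 pools left out, KLF9 ranked first or second. Its call against Long pools was lost without Long pool 2 (log2 difference −1.41, adjusted p = 0.0882) and kept without each of the other 5 pools. The next were the proline transporter SLC6A20 (0.113; log2 difference −1.53 against Long, adjusted p = 0.0179), whose call was lost without either Long pool, and the separase ESPL1 (0.139; −1.21, adjusted p = 0.107). The nearest to ACACB were FAM222A (0.0733; −0.77, adjusted p = 0.171), the secreted C1q and TNF related protein C1QTNF1 (0.0884; −0.85, adjusted p = 0.0274) and C1H21orf58 (0.116; −0.91, adjusted p = 0.0838). C1QTNF1 missed the threshold whichever of the 6 pools was omitted, at adjusted p from 0.0547 to 0.231. The nearest to TXNIP were SPRY1, CARD10 and IKBKE (0.0334, 0.0345 and 0.0395). With a pool left out, their ranks fell as low as 25, 33 and 31. In the same way SLC6A20 and ESPL1 fell as low as 6 and 11 for MLXIPL. For ACACB, FAM222A, C1QTNF1 and C1H21orf58 fell as low as 7, 10 and 38. TXNIP itself varied little, with an SD of 0.117 on the log2 scale over the 6 pools, against 0.727 for MLXIPL and 0.461 for ACACB.

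In bulk RNA, fewer cells of a type and less RNA per cell cannot be told apart, so the levels of cell type markers are given beside these results. The summed level of the 10 choroid epithelium markers, nearly all of it TTR, was 124660 and 146369 CPM in the THX pools, 113109 and 114950 CPM in the Long pools and 92710 and 98584 CPM in the Short pools. The markers did not move together: of the 10, 5 lay above 0 and 5 below 0 in THX against Long pools, and 4 above and 6 below in THX against Short pools. The serotonin receptor HTR2C, named after its values were seen, had 27.2 and 26.1 CPM in the THX pools, 44.4 and 44.1 CPM in the Long pools and 70.4 and 69.4 CPM in the Short pools. It fell in THX pools, by log2 differences of −0.73 against Long (adjusted p = 0.0203, edgeR) and −1.39 against Short pools (adjusted p = 0.00168). The first of these calls was lost whichever of the 6 pools was left out, at adjusted p from 0.0509 to 0.189. The klotho gene KL, named in the same way, had 715 and 608 CPM in the THX pools, 893 and 978 CPM in the Long pools and 1278 and 1098 CPM in the Short pools. Its log2 difference was −0.50 against Long (adjusted p = 0.222) and −0.85 against Short pools (adjusted p = 0.033), a call held in 1 of the 6 fits that leave out a pool, the one without THX pool 1 (0.0336). No other marker of the 10 was called by edgeR in either THX comparison. Upward, CLIC6, also named after its values were seen, had 879 and 867 CPM in the THX pools. It had 721 and 679 CPM in the Long pools and 667 and 653 CPM in the Short pools. Its log2 difference was 0.32 against Long (adjusted p = 0.222) and 0.40 against Short pools (adjusted p = 0.0615). For TTR the differences were 0.26 and 0.54 (adjusted p = 0.473 and 0.058). The summed level of 6 adipocyte markers stayed between 3.35 and 4.79 CPM in all pools, 3 of the 6 had enough counts to be tested, and leptin had no count in any pool. The 8 oligodendrocyte markers summed to 75.9 and 82.5 CPM in the THX pools, 83.5 and 101 CPM in the Long pools and 96.4 and 96.0 CPM in the Short pools, so both THX pools lay below the rest.

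The 6 fibroblast markers summed to 441 and 582 CPM in the THX pools, against 806 and 735 CPM in the Long pools and 657 and 846 CPM in the Short pools, and so lay below the others in both THX pools, as MLXIPL and ACACB did. All 6 had log2 differences below 0 in both THX comparisons. Of the 6 only LUM, named after its values were seen, was called by edgeR. Its log2 difference was −0.74 against Long (adjusted p = 0.0314) and −0.60 against Short pools (adjusted p = 0.0351). These calls were not followed under the alternative settings. The part of epithelial cells, fibroblasts and oligodendrocytes in the result was not tested. The 5 endothelial markers were at 473 and 474 CPM in the THX pools, 490 and 453 CPM in the Long pools and 431 and 546 CPM in the Short pools. Of 5 macrophage markers, the 4 used here summed to 120 and 131 CPM in the THX pools, 142 and 147 CPM in the Long pools and 114 and 133 CPM in the Short pools. The 5 neuron and astrocyte markers were at 353 and 354 CPM in the THX pools, 308 and 333 CPM in the Long pools and 321 and 313 CPM in the Short pools. SNAP25 alone made up most of this sum, at 318 and 324 CPM in the THX pools. In the THX pools the endothelial and macrophage sums lay within the range of the other pools, and the neuron and astrocyte sum lay above it.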

How the data were processed

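PolyA RNA was sequenced after a stranded mRNA library kit, per the labels. The submitters' processing notes name TopHat2 2.1.1, featureCounts 2.0.0, SAMtools 1.9, bcl2fastq 2.20, MultiQC 1.9 and FastQC 0.11.8. The values the authors deposited are raw counts per gene, not normalised. For the counting, neither the build and annotation nor the strand option is given in the sources used here, and no position is printed. In the RefSeq sheep table (ARS-UI_Ramb_v3.0, used for names and neighbours only) 7 of the 10 genes overlap another annotated gene. POLR3GL overlaps TXNIP and had 3257 to 5470 counts per pool. The genes overlapping MLXIPL and MLXIP were not analysed here, and those overlapping ACACB had no counts. The design text states 24 ewes, whereas its group sizes add up to 23.

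Counts were filtered with the default expression filter of edgeR 4.0.16 (R 4.3.3), scaled by TMM factors and fitted to all 6 pools with a mean for each group in the quasi-likelihood framework (3 residual and 3.96 prior degrees of freedom). Tests were two-sided F tests, adjusted over all 18019 genes by the Benjamini-Hochberg method with a threshold of 0.05. The SE is the log2 difference divided by the square root of F, and 95% intervals use the moderated degrees of freedom. Alternatives used DESeq2 1.42.0, limma-voom (limma 3.58.1), other scalings and filters, and fewer pools. The procedure was tested on simulated counts. The 10 genes and the lists were chosen with earlier results of these data known. All 10 are reported. From each list come the 2 genes with the lowest p in THX against Long and any called gene, plus the 3 genes most like MLXIPL, TXNIP and ACACB, with HR and KLF9 as checks. A gene that this rule takes is not reported here. PKLR, SCD, HTR2C, KL, CLIC6, LUM and SNAP25 were added after their values were seen. Plots were made in matplotlib 3.10.9 under Python 3.11.15.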

Additional observations from a re-analysis of the deposited data

How the results depend on the processing

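The fall of MLXIPL kept its direction under all 14 alternatives in both THX comparisons, at log2 differences of −1.48 to −1.32 against Long and −1.50 to −1.28 against Short pools. Of the 10 genes, 0 to 1 were called in THX against Long pools and 1 to 2 in THX against Short pools when 1 pool was left out, and 0 in Long against Short pools. In THX against Long pools 2 of the 10 were called without a filter and 2 by DESeq2. In THX against Short pools 3 were called with total counts, 3 without a filter, 2 among genes of at least 5 CPM, 3 by DESeq2 and 2 with the replicate block. Over all genes, THX against Long pools gave 51 calls, against 204 without a filter, 448 by DESeq2, 22 with only the 4 pools compared and 2 to 37 with 1 pool left out (2 without Long pool 2). Long against Short pools gave 0, against 159 by DESeq2 and 0 to 4 with 1 pool left out. THX against Short pools gave 165, against 259 with total counts, 908 without a filter, 1761 by DESeq2, 392 with the replicate block, 11 with only the 4 pools compared and 10 to 1087 with 1 pool left out (1087 without THX pool 1). The cause of these differences was not tested. Total counts lowered the share of upward calls in THX against Short pools to 18.9%, against 34.5%, and moved the median of all genes by −0.099. The median of the 10 genes was then −0.08 in THX against Long, −0.13 in Long against Short and −0.25 in THX against Short pools.

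Same-numbered pools were not shown to be paired: their deviations from the group means correlated at 0.0633 (THX and Long), 0.199 (THX and Short) and −0.0553 (Long and Short). With the replicate block MLXIPL stayed called (adjusted p = 0.0119 and 0.00938) and ACACB passed in THX against Short pools (0.0432). Signs turned only among differences within 0.17 of 0. With total counts TXNIP was −0.04 in THX against Long and MLXIPL −0.04 in Long against Short pools. With 1 pool left out, THX against Long ran from −0.02 to 0.15 for MLXIP, −0.12 to 0.13 for TXNIP, −0.04 to 0.04 for ARRDC4, −0.12 to 0.01 for SREBF1, −0.16 to 0.25 for ELOVL6 and −0.02 to 0.23 for ME1. Long against Short ran from −0.09 to 0.12 for MLXIPL, −0.15 to 0.06 for TXNIP and −0.10 to 0.09 for SREBF1. THX against Short ran from −0.20 to 0.0039 for MLXIP, −0.16 to 0.08 for TXNIP, −0.15 to 0.04 for SREBF1 and −0.38 to 0.03 for ELOVL6.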
